A study of Mus musculus with 12 samples.

Results

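The genes described here are the 10 that encode the enzymes and granule proteins with which endocrine and neural cells make peptide hormones: Cpe, Pcsk1, Pcsk2, Pcsk1n, Scg5, Pam, Chga, Chgb, Scg2 and Scg3. They were taken by symbol from a table that names 25867 genes, and all 10 were present. RNA was sequenced from epithelial cells of the mouse thymus (TECs), which show self-antigens to developing T cells. The cells were sorted from organ cultures of thymic lobes taken at E15.5 from C57BL/6 mice, and there were 12 libraries in 4 groups of 3. The knockout cultures were RosaCre-ERT2 Kat7fl/fl, in which a tamoxifen-activated Cre recombinase under the Rosa locus, and so not restricted to TECs, deletes the histone acetyltransferase gene Kat7. They had tamoxifen, as did the cultures labelled control, whose genotype is not detailed further. The WM-3835 cultures were wild type with an inhibitor of the KAT7 enzyme, which the sample titles spell WM-3825, and the DMSO cultures were wild type with its solvent. No dose or duration of the inhibitor is given in the sources used here. All 4 groups had 4 to 5 days in 1.35 mM deoxyguanosine, which kills thymocytes, and then 3 days in anti-RANK (10 µg/mL), which activates that receptor and brings on AIRE. The labels call the replicates biological without saying whether lobes of several embryos were pooled or shared a litter, so p-values measure the spread between these cultures only.

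Peptide hormones are made as long precursors that are cut and trimmed inside secretory granules. Prohormone convertases cut a precursor at pairs of basic residues, carboxypeptidase E removes the basic residues left at the new ends, and PAM converts a terminal glycine to the amide that many hormones need. Granins are acidic proteins that condense in the granule with the hormones and are themselves cut into peptides, and medullary TECs are known for transcribing at low levels many genes that are otherwise restricted to tissues such as endocrine glands.

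Libraries held 26656847 to 52368012 counts. Kat7 was at 0.606, 0.810 and 0.869 CPM (a count scaled to library size, with the TMM method) in the knockout libraries, against 89.0, 76.5 and 76.0 CPM in the controls, so the targeted gene went with the labels in these 6 libraries. Aire, the regulator that drives tissue-restricted genes in TECs, was at 536 ± 43.9 CPM in knockout libraries, against 634 ± 36.2 CPM in controls (SD, n = 3; log2 -0.24, adjusted p = 0.0457 by edgeR's quasi-likelihood test), and at 556 ± 40.5 CPM with WM-3835, against 1199 ± 69.9 CPM with DMSO (log2 -1.11, adjusted p = 3.36e-08). Replicates differed most among the controls, where the common biological coefficient of variation was 0.465, against 0.295 in knockout, 0.126 in WM-3835 and 0.101 in DMSO libraries. The TEC markers Epcam, Foxn1, Krt5, Krt8 and Psmb11 were present in every library, and 10 TEC genes summed to 13014 to 17469 CPM. The T cell gene Cd3e had at most 14 counts in a library, but other blood cell markers were present. Summed over 8 such genes, they were 37.3 to 54.9 CPM in knockout libraries, against 52.7 to 100 CPM in controls. WM-3835 libraries had 22.3 to 28.8 CPM, against 30.9 to 49.0 CPM in DMSO libraries. Of the 6 tested, 1 fell in knockout and none with WM-3835, where 14.2% and 18.7% of all genes were called. Knockout library 3 stood apart from the other knockout libraries in Xist, the RNA of the silenced X chromosome, with 4.94 CPM against 1709 and 1191 CPM. The controls had 2.34 to 3.17 CPM of Xist, and the 6 wild-type libraries had 846 to 2118 CPM. Xist thus differed together with the group between DMSO and control. It also set knockout 1 and knockout 2 apart from all controls, so its part cannot be told apart from the group in these comparisons.

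Short windows around the start sites show what several of these genes have in common at the sequence level. The cyclic AMP response element, TGACGTCA, is an 8-base palindrome that CREB family factors are known to bind. Windows from 250 bases before to 50 bases after a RefSeq start (GRCm38.p6, the assembly also called mm10) were found for 9 of the 10 genes. The starts used for Pam, Pcsk1 and Scg3 lie inside the bounds that RefSeq gives those genes, and so are not their outermost starts. They were searched on both strands for TGACGTCA, for its variant TGACGTAA, for the shorter TGACG that both contain, for the TATA box TATAAA, for the AP-1 element TGACTCA and for TTCAGCACC, part of the element that the repressor REST binds. TGACGTCA was in the windows of 3 of the 9 genes, Scg2, Chgb and Pcsk1, and in 2.03% of the 27025 genes with a window (1.79% of all windows). Its first base lay 68, 72 and 78 bases upstream of the start in those 3 genes. Chga held TGACGTAA 44 bases upstream, which 0.581% of genes with a window hold. TGACG occurred in 7 of the 9 genes, against 23% of all genes with a window, and Pam and Pcsk1n held none of these 3. TATAAA was in Chga (15.7% of genes with a window), TGACTCA in Pcsk1n (5.95%) and TTCAGCACC in Scg2 (0.433%). The TATAAA of Chga began at base 6 after the RefSeq start, not upstream of it. The Pcsk1n match began 234 bases upstream, and the Scg2 match began 7 bases upstream and ran across the start. The last 100 bases before the start are shown for the 4 genes with the element, whose capitals mark it, and for Pam, which has none, read 5′ to 3′ on the gene's strand. Pam had 2 overlapping windows, of which the first is shown. The Pam and Pcsk1 stretches lie inside the bounds of their genes.
Scg2 (chr1:79440027-79440126, minus strand): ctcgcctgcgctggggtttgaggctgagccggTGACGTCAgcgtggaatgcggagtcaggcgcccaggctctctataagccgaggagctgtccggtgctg
Chgb (chr2:132781542-132781641, plus strand): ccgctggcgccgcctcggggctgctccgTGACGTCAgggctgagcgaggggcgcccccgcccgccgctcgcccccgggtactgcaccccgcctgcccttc
Pcsk1 (chr13:75089757-75089856, plus strand): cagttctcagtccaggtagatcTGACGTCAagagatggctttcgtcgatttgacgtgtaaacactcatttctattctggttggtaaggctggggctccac
Chga (chr12:102554841-102554940, plus strand): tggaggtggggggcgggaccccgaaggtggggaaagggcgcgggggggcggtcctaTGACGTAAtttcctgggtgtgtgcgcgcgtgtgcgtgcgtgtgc
Pam (chr1:98095647-98095746, minus strand): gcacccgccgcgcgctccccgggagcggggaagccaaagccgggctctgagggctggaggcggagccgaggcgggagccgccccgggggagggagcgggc
These matches describe letters only. Among the 3 genes with the palindrome, Scg2 changed in both main comparisons and Chgb and Pcsk1 passed the test in neither.

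The 10 genes ran from well expressed to near 0. In RPKM (CPM divided by gene length in kilobases), averaged over the 12 libraries, Chga was at 42.8, Pam at 37.3, Cpe at 6.97, Scg2 at 3.16 and Scg5 at 1.14. Chgb followed at 0.627, Pcsk1 at 0.397, Pcsk2 at 0.224, Pcsk1n at 0.106 and Scg3 at 0.104. The amidating enzyme and chromogranin A together held 70.2% to 95.1% of the 10 genes' summed CPM in a library, and the lowest share was in control 1, where Cpe was high. The convertases and the proteins that act on them, Pcsk1n and Scg5, were all low. The order changed between groups: Chga lay above Pam on average in knockout libraries (79.7 ± 24.9 RPKM against 29.5 ± 1.17 RPKM, SD, n = 3) and below it in DMSO libraries (14.3 ± 0.932 RPKM against 47.6 ± 0.539 RPKM). In the controls the means were 42.5 RPKM for Chga and 42.1 RPKM for Pam, closer than their spread. Scg2 lay above Cpe in DMSO libraries (5.84 ± 0.794 RPKM against 2.89 ± 0.525 RPKM) and below it in the other 3 groups, and Pcsk1 (0.665 RPKM) and Chgb (0.641 RPKM) differed by less than their spread in knockout libraries. Pcsk1n and Scg3 differed by less than their spread in every group.

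**Figure D1:**
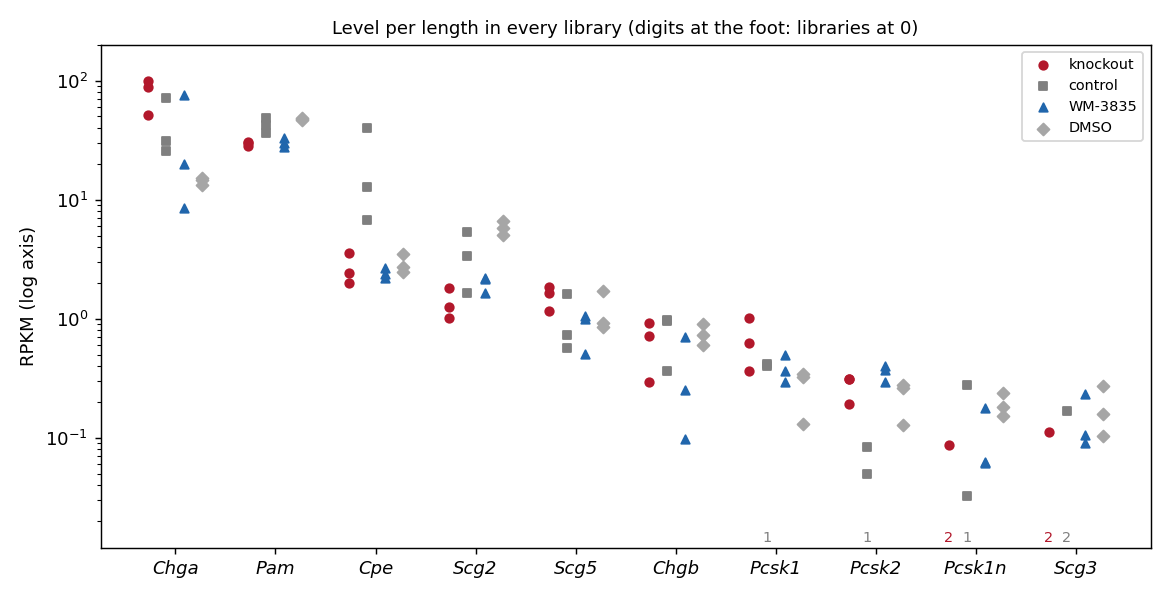
Level per unit length (RPKM, log axis) of the 10 genes in each library, ordered by the mean over 12 libraries; digits at the foot count libraries at 0, which a log axis cannot show. Chga and Pam sit highest, and Pcsk1n and Scg3 lowest with libraries at 0 in both knockout and control groups.

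In Kat7 knockout TECs, 3 of the 10 genes fell relative to control and none rose: the carboxypeptidase gene Cpe, the amidating enzyme gene Pam and the granin gene Scg2. In WM-3835 TECs Pam and Scg2 fell relative to DMSO and none rose. All 10 genes passed the filter on low counts. A gene was called at an adjusted p under 0.05 (edgeR's quasi-likelihood test, Benjamini-Hochberg) over the 18670 genes tested. In knockout against control, 14.2% of all genes tested were called, 8.06% as lower, and in WM-3835 against DMSO 18.7% were called, 9.35% as lower. The 2 genes called of 10 in the inhibitor comparison are close to that background. The median log2 change of the 10 genes was -0.38 in each of the main comparisons, while the median over all genes tested was -0.01 in each. In these bulk libraries fewer cells of one type and less RNA per cell cannot be told apart.

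**Figure D2:**
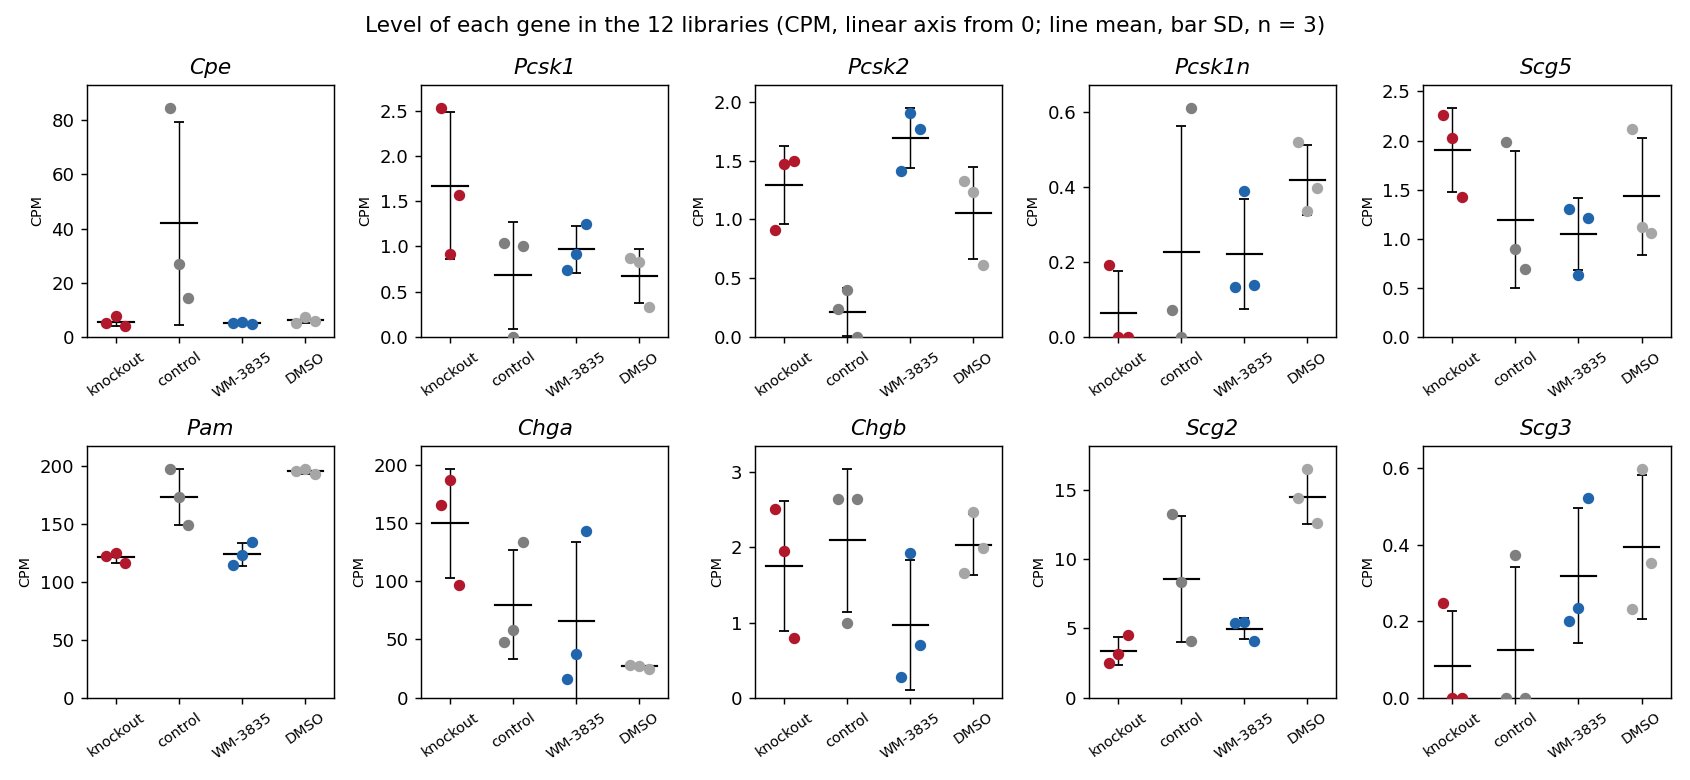
CPM of each gene in each library (linear axes from 0), with knockout, control, WM-3835 and DMSO libraries from left to right; lines are means and bars SD of 3 libraries, cut at 0. Pam and Scg2 are lower in the WM-3835 than in the DMSO libraries, and the high Cpe values are those of the controls.

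Cpe (chromosome 8, 64592542 to 64693109), which encodes carboxypeptidase E, was at 5.07, 7.55 and 4.17 CPM in knockout libraries, against 84.6, 26.9 and 14.2 CPM in controls. Every knockout library lay below every control, and the controls themselves spanned a 5.94-fold range. WM-3835 libraries had 5.01, 5.61 and 4.61 CPM and DMSO libraries had 5.22, 7.33 and 5.71 CPM, which overlapped. Cpe was 7.51-fold lower in knockout than in control (log2 -2.91, SE 0.44, adjusted p = 0.000254). WM-3835 against DMSO gave a log2 change of -0.25 (SE 0.43, adjusted p = 0.774). The difference between the knockout effect and the inhibitor effect was -2.66 on the log2 scale (SE 0.60, adjusted p = 0.00748). Cpe alone of the 10 genes passed that test, in which 10.1% of all genes were called.

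The contrast in Cpe sat in the control group. DMSO cultures were also lower than controls, at 6.09 ± 1.10 CPM against 41.9 ± 37.5 CPM (SD, n = 3; log2 -2.79, SE 0.43, adjusted p = 9.94e-05), so the knockout, WM-3835 and DMSO libraries all lay between 4.17 and 7.55 CPM. That comparison is descriptive, because treatment, genotype label and Xist level differ together between DMSO and control. It shares the controls with the knockout comparison. With a covariate for Xist its log2 change was -3.37 and did not pass (adjusted p = 0.0544). Xist was at 1382 to 1898 CPM in DMSO libraries, against 2.34 to 3.17 CPM in controls. That covariate nearly follows the groups, so this alternative cannot separate the 2. Tuft cell markers (8 genes) also differed between these cultures, with 73.7 to 112 CPM in DMSO libraries, against 714 to 1041 CPM in controls, and their part in the Cpe difference was not tested. The knockout call remained without each library in turn, but its size depended on control 1: without that library the log2 change was -1.87 (adjusted p = 0.000466) the difference between effects was -1.61 (adjusted p = 0.0121), and DMSO against control gave -1.75 (adjusted p = 0.000213). With control 3 as the only control, an alternative chosen after seeing the data that takes the spread from the other groups, the log2 change was -1.33 (adjusted p = 0.00548). The call on the difference between effects was lost with limma-voom (-2.44, adjusted p = 0.191), with knockout 3 standing alone for its group (-3.06, adjusted p = 0.0641) and with a covariate for Xist (-3.08, adjusted p = 0.0708).

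Summed markers of fibroblasts were, like Cpe, higher in the controls than in the other groups, though single markers differed. Their sum over 10 genes was 68.3 to 98.6 CPM in knockout libraries, against 129 to 214 CPM in controls, and 59.3 to 71.7 CPM in WM-3835 libraries, against 62.3 to 83.6 CPM in DMSO libraries. In knockout against control 4 of the 10 markers fell, Thy1 (log2 -3.02), Lum (-2.36), Dcn (-1.79) and Col1a1 (-1.15), with none at 0 in all libraries. With WM-3835 3 fell (Pdgfrb, Dcn and Thy1) and Pdgfra rose. Over all genes 8.06% were called lower in knockout, and 9.35% lower and 9.34% higher with WM-3835. Dcn was at 8.83 ± 1.85 CPM with WM-3835, against 18.8 ± 3.20 CPM with DMSO (SD, n = 3). Pdgfra was at 18.5 ± 3.76 CPM with WM-3835, against 1.06 ± 0.246 CPM with DMSO. The near sums of these 2 groups thus held changes in both directions, while Cpe did not pass there. The part of these cells in the Cpe result was not tested. The collagenase gene Mmp13 was picked as the nearest to Cpe of 13778 genes compared over these 12 libraries, so its likeness to Cpe follows from that choice. It was at 4.38, 3.20 and 3.69 CPM in knockout libraries, against 64.0, 18.4 and 12.6 CPM in controls. Within the controls the order of the libraries differed: control 3 had the lowest Cpe and 181 CPM of fibroblast markers, above the 129 CPM of control 2. Control 1 also held more of the ribosomal precursor RNA Rn45s, 0.669% of its counts against 0.167% to 0.267% in the other 11 libraries.

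Pcsk1, which encodes the convertase of the early secretory pathway and young granules, was at 2.53, 0.920 and 1.56 CPM in knockout libraries, against 1.04, 0 and 1.00 CPM in controls. The groups overlapped, and the log2 change was 1.30 (SE 0.97, adjusted p = 0.421). WM-3835 libraries had 0.739, 0.913 and 1.25 CPM, against 0.867, 0.823 and 0.328 CPM in DMSO libraries, also overlapping (log2 0.52, SE 0.96, adjusted p = 0.795). These values rest on 14 to 92 counts in the 11 libraries with any.

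Pcsk2, which encodes the convertase of mature granules, was at 0.909, 1.47 and 1.49 CPM in knockout libraries, against 0.237, 0.398 and 0 CPM in controls. All knockout libraries lay above all controls, as they did for 12.2% of all genes tested, with 33 to 43 counts in the knockout libraries and 10, 16 and 0 in the controls. The log2 change was 2.58 (SE 0.88) with an adjusted p of 0.0583, which did not pass. DESeq2 gave 2.59 with an adjusted p of 0.00485, and the test was also passed with no filter (adjusted p = 0.0485), with a filter of CPM over 1 in at least 3 libraries (0.0396) and without control 2 (0.0299). WM-3835 libraries had 1.41, 1.90 and 1.77 CPM, against 1.33, 1.23 and 0.609 CPM in DMSO libraries. Those groups did not overlap either, as for 23.1% of all genes, and the log2 change of 0.68 (SE 0.81, adjusted p = 0.655) did not pass. The low Pcsk2 values were those of the controls. DMSO libraries were also higher, at 1.06 ± 0.392 CPM against 0.212 ± 0.200 CPM in controls (SD, n = 3). That log2 change was 2.29 (SE 0.87, adjusted p = 0.064) and did not pass. It passed with DESeq2 (adjusted p = 0.00977), with the filter of CPM over 1 (0.0439) and without control 2 (0.028).

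Pcsk1n encodes proSAAS, an inhibitor of the Pcsk1 product, and was at the edge of detection. It had 7, 0 and 0 counts in knockout libraries, against 3, 0 and 22 in controls, and 6, 15 and 4 in WM-3835 libraries, against 27, 9 and 17 in DMSO libraries. The groups overlapped in both comparisons, and neither passed (adjusted p = 0.554 and 0.772). Where a library has no count, up to 3 counts would still be compatible with its depth, so no change in Pcsk1n was detectable at this depth.

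Scg5 encodes a chaperone that the Pcsk2 product needs to mature. It was at 2.26, 2.02 and 1.43 CPM in knockout libraries, against 1.99, 0.896 and 0.696 CPM in controls, and the groups overlapped (log2 0.67, SE 0.59, adjusted p = 0.508). WM-3835 libraries had 1.30, 0.626 and 1.21 CPM, against 2.12, 1.12 and 1.05 CPM in DMSO libraries (log2 -0.46, SE 0.60, adjusted p = 0.688), which overlapped too.

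Pam (chromosome 1, 97821091 to 98095853) differed little within groups. Its level was 122, 125 and 116 CPM in knockout libraries, against 197, 173 and 148 CPM in controls. WM-3835 libraries had 114, 123 and 134 CPM, against 196, 197 and 193 CPM in DMSO libraries. In both comparisons every library of the depleted or inhibited group lay below every library it was set against, as did 13.5% of all genes tested in the first and 23% in the second. Pam was 1.43-fold lower in knockout (log2 -0.51, SE 0.09, adjusted p = 0.000977) and 1.58-fold lower with WM-3835 (log2 -0.66, SE 0.09, adjusted p = 4.03e-05). The difference between these effects was 0.15 (SE 0.13, adjusted p = 0.56) and did not pass. Both calls remained in all alternatives tried, with log2 changes from -0.60 to -0.28 in knockout and from -0.72 to -0.60 with WM-3835.

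**Figure D3:**
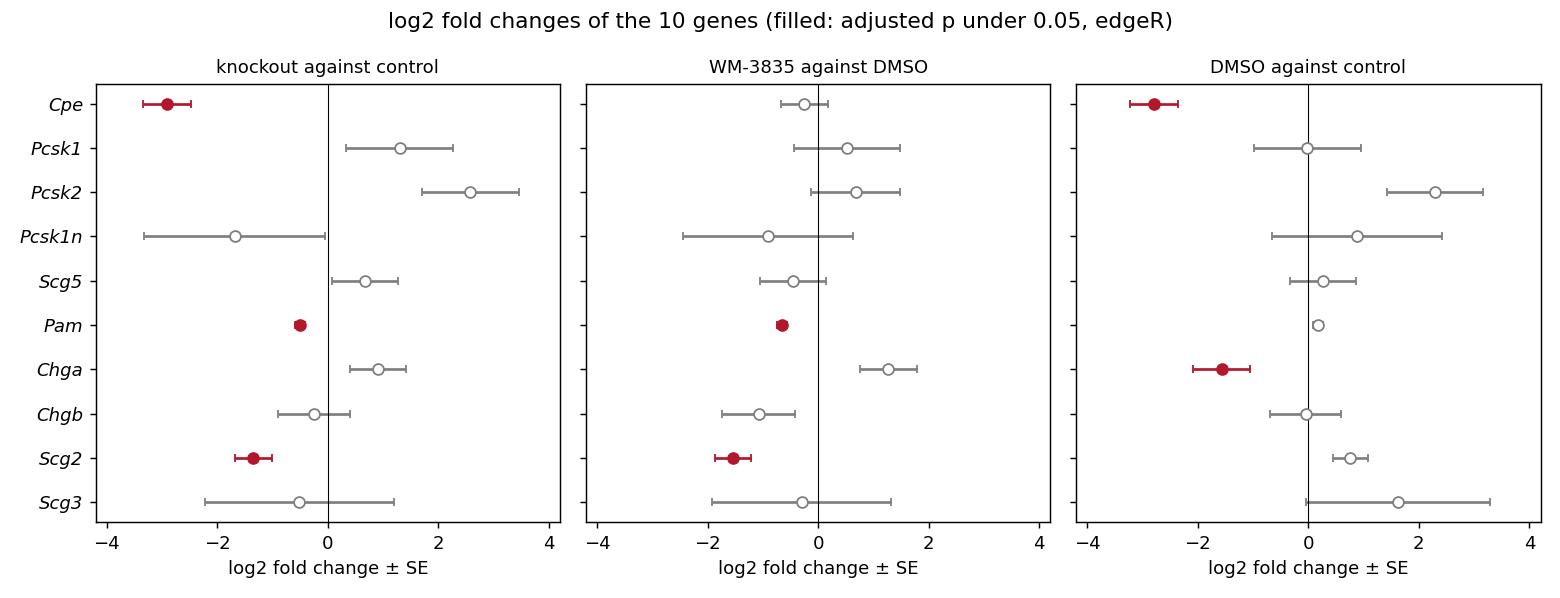
log2 fold changes with SE of the 10 genes in knockout against control, WM-3835 against DMSO and DMSO against control; filled red points passed an adjusted p of 0.05. Pam and Scg2 are filled in both Kat7 comparisons, and Cpe in knockout against control and DMSO against control, which share the control libraries.

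Scg2, which encodes secretogranin II, the precursor of secretoneurin, was at 2.51, 3.13 and 4.48 CPM in knockout libraries, against 13.2, 8.32 and 4.12 CPM in controls. The groups overlapped, since knockout 3 lay just above control 3. In WM-3835 libraries Scg2 was at 5.37, 5.45 and 4.09 CPM, against 14.4, 16.5 and 12.6 CPM in DMSO libraries, with no overlap. Scg2 was 2.91-fold lower with WM-3835 (log2 -1.54, SE 0.32, adjusted p = 0.00223) and 2.54-fold lower in knockout (log2 -1.35, SE 0.33, adjusted p = 0.0108). The inhibitor call remained in all 17 alternatives. The knockout call was lost without control 1 (-0.88, adjusted p = 0.0645), without knockout 1 (-1.16, adjusted p = 0.0561), and in 7 other alternatives, among them the 6 libraries alone (-1.35, adjusted p = 0.0705) and control 3 as the only control (-0.28, adjusted p = 0.555). The difference between the effects was 0.19 (SE 0.46, adjusted p = 0.867). Summed markers of neural and glial cells, in which Scg2 is abundant, were 27.6 to 33.5 CPM in knockout libraries, against 34.6 to 42.0 CPM in controls, and 27.5 to 29.1 CPM in WM-3835 libraries, against 49.8 to 60.4 CPM in DMSO libraries. Of the 9 tested, 2 fell in knockout (Th and Prph) and 3 with WM-3835, among them Prph and Stmn2. Over all genes 8.06% and 9.35% were called lower. The part of neural and glial cells in the Scg2 result was not tested.

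Chga (chromosome 12, 102554941 to 102565027), which encodes chromogranin A, varied widely between replicates. It was at 165, 187 and 97.2 CPM in knockout libraries, against 47.8, 58.2 and 134 CPM in controls, and at 16.0, 37.6 and 143 CPM in WM-3835 libraries, against 28.4, 27.5 and 25.0 CPM in DMSO libraries. The groups overlapped in both comparisons. WM-3835 replicates spanned an 8.95-fold range and DMSO replicates a 1.13-fold range. The log2 change was 0.91 in knockout (SE 0.50, adjusted p = 0.254) and 1.27 with WM-3835 (SE 0.52, adjusted p = 0.1), and neither passed. The WM-3835 value depended on library 3: without it the log2 change was -0.01 (adjusted p = 0.993), and without WM-3835 library 1 it was 1.74 (adjusted p = 0.0101). It also passed with no filter on low counts (1.25, adjusted p = 0.0223). DMSO libraries were lower than controls (log2 -1.57, SE 0.52, adjusted p = 0.0334), and Chga and Cpe were the 2 of the 10 genes called there, both lower, against 24.6% of all genes tested (13.3% lower). That call was lost in 8 alternatives, including without control 3 (-0.96, adjusted p = 0.199).

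Pth, the parathyroid hormone gene, was highest in the same library as Chga within each of the 4 groups. It was at 48.6, 74.9 and 25.5 CPM in knockout libraries, against 2.22, 5.18 and 36.2 CPM in controls, and at 4.66, 9.55 and 42.3 CPM in WM-3835 libraries, against 6.20, 2.88 and 3.07 CPM in DMSO libraries. The ratio of Chga to Pth counts was 2.50 to 3.94 in the 7 libraries of the knockout and WM-3835 groups and control 3, and 4.57 to 21.5 in the other 5. Gcm2, the regulator that defines parathyroid cells, was at 3.99, 4.75 and 4.00 CPM in knockout libraries, against 0.568, 3.11 and 2.53 CPM in controls, and at 0.0895, 0.417 and 1.53 CPM in WM-3835 libraries, against 0.443, 0.748 and 0.234 CPM in DMSO libraries. Casr, the other parathyroid marker listed, did not follow Chga and Pth. It was at 15.9 ± 1.04 CPM in knockout libraries, against 16.5 ± 1.32 CPM in controls (SD, n = 3). With WM-3835 it was at 7.24 ± 1.18 CPM, against 8.25 ± 1.94 CPM with DMSO. Casr ran only from 15.7 to 18.1 CPM in controls and from 6.49 to 8.60 CPM in WM-3835 libraries. The 3 parathyroid markers Gcm2, Pth and Casr passed the test in neither main comparison, where 14.2% and 18.7% of all genes were called. None of the 3 was at 0 in any library. With log2 CPM of Pth as a covariate, an alternative chosen after seeing the data, the Chga change was -0.55 in knockout (adjusted p = 0.304) and -0.19 with WM-3835 (adjusted p = 0.76).

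**Figure D4:**
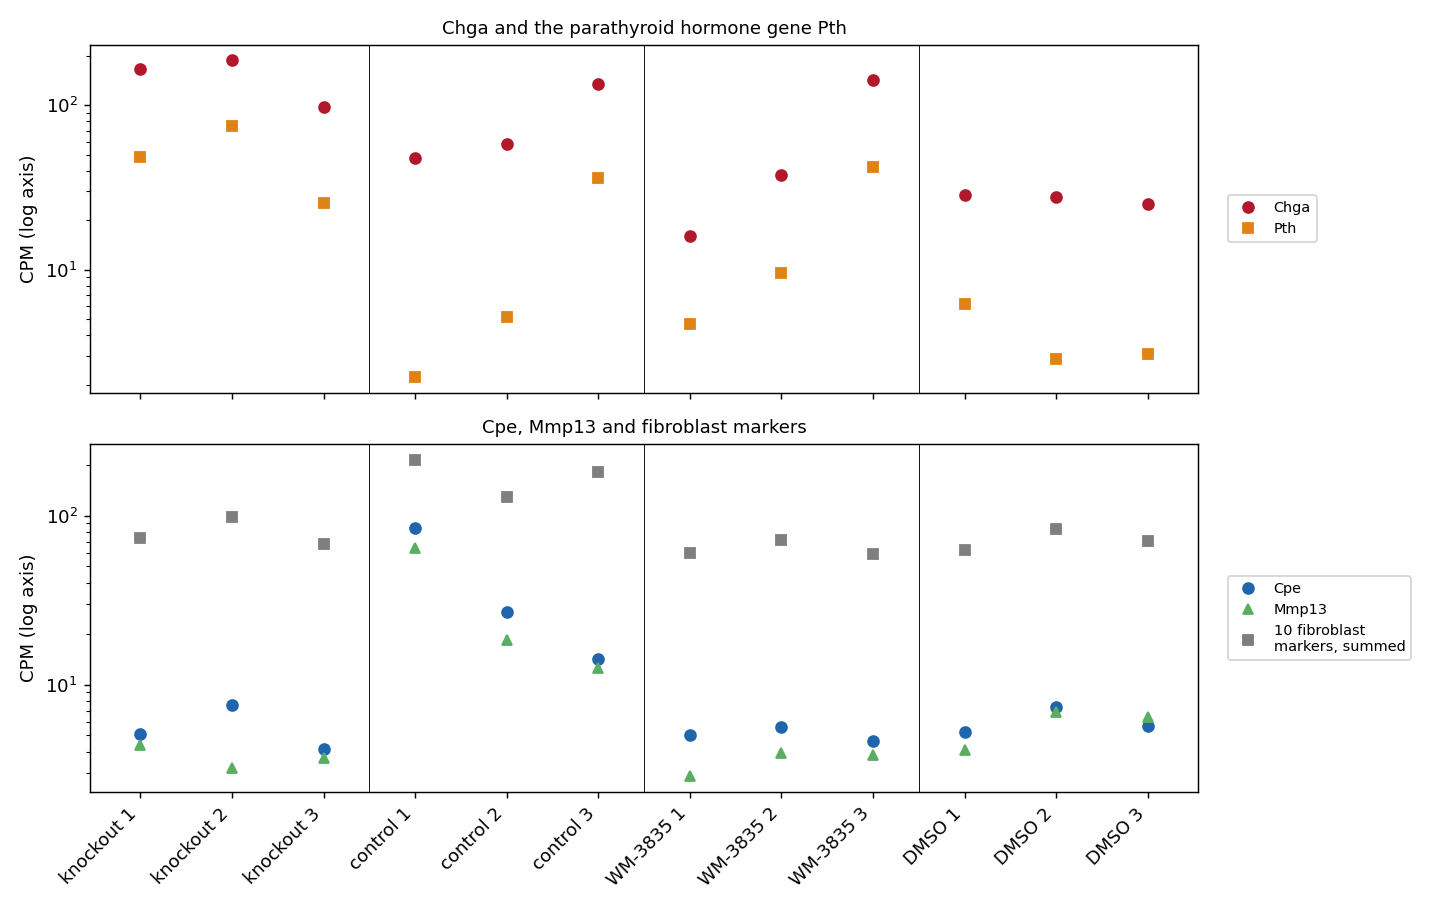
CPM (log axis) in the 12 libraries, knockout, control, WM-3835 and DMSO from left to right; above, Chga and the parathyroid hormone gene Pth, and below, Cpe, Mmp13 and the summed fibroblast markers. Control 3 and WM-3835 3 stand high in both Chga and Pth, and Cpe and Mmp13 are high in the 3 controls. Mmp13 was chosen as the gene nearest to Cpe in these libraries.

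Chgb, which encodes chromogranin B, was at 2.51, 1.95 and 0.800 CPM in knockout libraries, against 2.65, 0.996 and 2.64 CPM in controls. It was at 0.269, 1.93 and 0.694 CPM in WM-3835 libraries, against 1.66, 2.47 and 1.99 CPM in DMSO libraries. Both pairs of groups overlapped, with log2 changes of -0.25 (SE 0.65, adjusted p = 0.844) and -1.07 (SE 0.66, adjusted p = 0.301). The inhibitor change passed only in limma-voom with quality weights (-1.48, adjusted p = 0.0369). Scg3, whose product helps bring chromogranin A to granules, had 9, 0 and 0 counts in knockout libraries, against 0, 15 and 0 in controls, and 9, 9 and 15 in WM-3835 libraries, against 12, 16 and 15 in DMSO libraries. At those counts no change was detectable (adjusted p = 0.88 and 0.943).

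The other convertases, which serve the general secretory route, moved in mixed directions. Of 7 tested, 3 fell and 1 rose in knockout, and 1 fell and 2 rose with WM-3835, against 14.2% and 18.7% of all genes called; their medians were -0.04 and 0.01. Furin, the convertase of most cells, fell to 121 ± 5.56 CPM in knockout libraries, against 164 ± 18.1 CPM in controls (SD, n = 3; log2 -0.44, SE 0.08, adjusted p = 0.00168), and rose to 141 ± 5.94 CPM with WM-3835, against 109 ± 6.13 CPM with DMSO (log2 0.37, SE 0.08, adjusted p = 0.0036). Pcsk6 rose in knockout (log2 0.50, adjusted p = 0.00176), while Pcsk4, the convertase of germ cells, fell (-1.14, adjusted p = 0.0389). With WM-3835, Pcsk5 fell (-0.83, adjusted p = 0.0127) and Pcsk7 rose (0.36, adjusted p = 0.0221).

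Of 9 other carboxypeptidase genes 7 were tested, and none fell in either main comparison. In knockout 1 rose and with WM-3835 3 rose, against 6.12% and 9.34% of all genes called higher. Cpxm1, which encodes a relative of carboxypeptidase E without known catalytic activity, rose in knockout to 17.7 ± 5.66 CPM, against 7.53 ± 2.25 CPM in controls (log2 1.24, adjusted p = 0.00174), and with WM-3835 to 24.0 ± 3.37 CPM, against 11.9 ± 1.65 CPM with DMSO (log2 1.01, adjusted p = 0.0039). Cpm, a cell-surface enzyme, rose with WM-3835 (log2 0.93, adjusted p = 1.59e-05), as did the mast cell protease Cpa3 (1.75, adjusted p = 0.0228). Cpd, the carboxypeptidase of the trans-Golgi network in most cells, was at 160 ± 12.7 CPM in knockout and 178 ± 15.6 CPM in control libraries and did not pass; it was chosen after its values were seen.

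Of 5 other granule proteins, 2 fell with WM-3835: Ptprn2, a granule membrane protein and diabetes autoantigen (5.87 ± 0.893 CPM against 13.8 ± 0.593 CPM with DMSO, log2 -1.24, adjusted p = 8.26e-05), and Vgf, a granin-like precursor (7.41 ± 1.48 CPM against 15.3 ± 2.04 CPM with DMSO, log2 -1.05, adjusted p = 0.00133). Over all genes 9.35% were called lower with WM-3835, and 14.2% in either direction in knockout. In knockout neither Ptprn2 nor Vgf passed, and the 1 gene called was Qpct, which makes the pyroglutamate end of some hormones. Qpct had 23, 0 and 20 counts in knockout libraries, against 0 in all 3 controls. The summed counts were at least 18.4-fold higher against a floor of 3 counts over the group, but knockout 2 had none, like the controls. DMSO libraries also lay above the controls in Qpct, at 0.370 ± 0.194 CPM, near the 0.443 ± 0.385 CPM of knockout libraries (SD, n = 3). Of 23 genes of regulated exocytosis, 1 rose and 2 fell in knockout, where 14.2% of all genes were called, so the count is near the background: Rab3d (log2 0.35, adjusted p = 0.0332), the vesicular monoamine transporter Slc18a2 (-0.97, adjusted p = 0.0317) and the calcium sensor Syt7 (-0.75, adjusted p = 0.0377). With WM-3835, against 18.7% of all genes, 2 rose and 4 fell, among them the granule priming factor Cadps (-1.14, adjusted p = 0.000222), Syt13 (-1.01, adjusted p = 0.00178) and Cplx2 (-0.37, adjusted p = 0.0101), while Rab3d rose (0.43, adjusted p = 0.00648).

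Among the precursors that this machinery acts on, more fell than rose in both comparisons. Of 41 listed peptide hormone precursor genes 34 were tested, and 12 fell and 2 rose in knockout, against 8.06% and 6.12% of all genes; with WM-3835, 11 fell and 2 rose, against 9.35% and 9.34%. Their median log2 change was -0.97 in knockout and -1.34 with WM-3835, while the median over all genes was -0.01 in each. Calca, the precursor of calcitonin and CGRP, was at 11.5 ± 1.08 CPM in knockout libraries, against 24.4 ± 3.56 CPM in controls (log2 -1.09, SE 0.18, adjusted p = 0.000641), and at 10.1 ± 2.70 CPM with WM-3835, against 29.4 ± 2.30 CPM with DMSO (log2 -1.54, SE 0.18, adjusted p = 8.92e-06). Its relative Calcb (-0.88, adjusted p = 5.04e-05) and Cck, cholecystokinin (-2.76, adjusted p = 1.77e-05), fell with WM-3835, and Adm, adrenomedullin (-1.19, adjusted p = 0.00013), Tac2 (-1.83, adjusted p = 0.00108) and Gal, galanin (-1.43, adjusted p = 0.00133), fell in knockout. Many of these peptides, among them calcitonin, CGRP, cholecystokinin and adrenomedullin, carry the terminal amide that PAM makes. Tac1, the substance P precursor, rose in both, with a log2 change of 0.99 in knockout (adjusted p = 0.023), and to 29.3 ± 3.33 CPM with WM-3835, against 5.60 ± 0.925 CPM with DMSO (log2 2.39, adjusted p = 8.89e-06).

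The knockout and inhibitor comparisons share no library. Of the 12 precursors that fell in knockout and the 11 that fell with WM-3835, 9 were the same, 75% of the first list and 81.8% of the second. Over all genes tested, 470 were lower in both, 31.2% of the 1504 lower in knockout and 26.9% of the 1746 lower with WM-3835. Pomc, which Pcsk1 and Pcsk2 products are known to cut into corticotropin and melanotropins and which was named after its values were seen, was among the 9: it was at 2.86, 2.76 and 1.77 CPM in knockout libraries, against 4.33, 11.6 and 8.10 CPM in controls (log2 -1.69, adjusted p = 0.00292), and at 2.11 ± 0.666 CPM with WM-3835, against 8.69 ± 0.683 CPM with DMSO (log2 -2.03, adjusted p = 0.000337). The 14 calls in knockout became 2 with a covariate for Xist and 4 with knockout 3 standing alone for its group, and were 7 and 8 without knockout 2 and knockout 1. The 13 calls with WM-3835 became 8 without WM-3835 library 3 or without DMSO library 2. With only the 6 libraries of each comparison the calls were 9 in knockout and 23 with WM-3835.

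**Figure D5:**
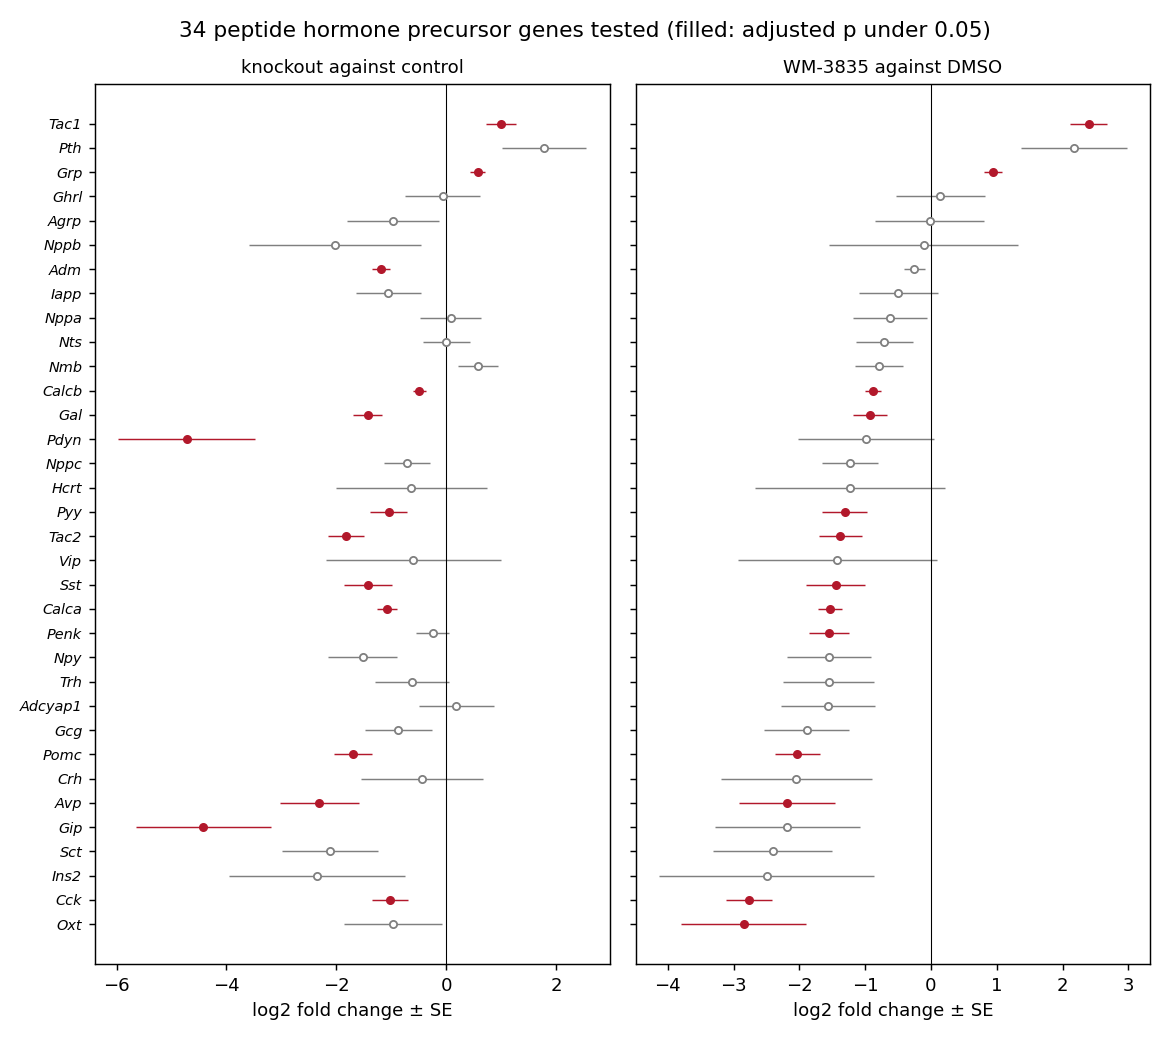
log2 fold changes with SE of the 34 peptide hormone precursor genes tested, in knockout against control (left) and WM-3835 against DMSO (right), ordered by the inhibitor change; filled red points passed an adjusted p of 0.05. Most points lie left of 0 in both panels, and Tac1 and Grp are filled to the right in both.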

How the data were processed

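RNA was sequenced from sorted TECs of 12 cultures, 4 groups of 3, in 75-base read pairs with a kit that does not mark strand, per the labels. The authors deposited raw counts per gene with Entrez ID, symbol and length, per the file headers, and the submitters' processing notes name featureCounts and mm10. Which aligner, annotation and strand setting were used is not given in the sources used here. Of 27179 genes listed, the 1312 without a symbol (0.657% to 0.743% of counts) were left out. From these counts, edgeR 4.0.16 in R 4.3.3 gave TMM-scaled CPM and RPKM, and a quasi-likelihood fit of 4 group means to all 12 libraries after filterByExpr (18670 genes). Tests were two-sided, with Benjamini-Hochberg adjustment over all genes of a comparison, called at 0.05. The script was tested on simulated data. Alternatives included DESeq2 1.42.0, limma 3.58.1 (voom), other scalings, filters, covariates and leaving out each library. The genes described and all lists were chosen with earlier results of these data known. Of each list, the text names up to 4 genes with the smallest adjusted p in a comparison, and says where a name was added later. Replicates differed by 8.57 to 51.2 times counting error (chi-square per degree of freedom), so no library was a copy of another. SEs and SDs include the spread between cultures, floors cover counting error only, and depth limits genes with few counts. A few genes of the lists are counted but not reported here by name.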

Additional observations from a re-analysis of the deposited data

Results flagged for a closer look

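The change of Cpe differed between the knockout and the inhibitor comparison, and the contrast sat in the controls. The knockout effect minus the inhibitor effect was -2.66 on the log2 scale (SE 0.60, adjusted p = 0.00748 by edgeR over all genes). Cpe was at 5.60 ± 1.75 CPM in knockout libraries, against 41.9 ± 37.5 CPM in controls, and at 5.08 ± 0.500 CPM in WM-3835 libraries, against 6.09 ± 1.10 CPM in DMSO libraries (SD, n = 3). All 3 knockout libraries lay below all 3 controls, while WM-3835 and DMSO libraries overlapped. DMSO libraries were also lower than controls (log2 -2.79, SE 0.43, adjusted p = 9.94e-05). Without control 1, the library with the highest Cpe, the difference between effects was -1.61 (adjusted p = 0.0121). The call on that difference was lost with limma-voom (-2.44, adjusted p = 0.191) and with a covariate for Xist (-3.08, adjusted p = 0.0708). With knockout 3 standing alone for its group the difference was -3.06.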

How the results depend on the processing

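In knockout against control, 2646 genes were called, against 1157 with only the 6 libraries of the comparison, 1180 with limma-voom and quality weights, 480 with Xist as a covariate, 704 with knockout 3 standing alone for its group, 1602 with Pth as a covariate and 4103 with control 3 as the only control; the last 2 were chosen after seeing the data. The 25 calls on the 6 lists of related genes became 14, 10, 3, 7 and 14 in the first 5 of these, and 15 to 22 on leaving out 1 library. In WM-3835 against DMSO, 3490 genes were called, against 6070 with 6 libraries and 6589 with quality weights, and 31 list calls became 51 in both. For the difference between effects, 1887 genes became 784 with knockout 3 alone and 695 with Xist as a covariate, 13 list calls became 5 and 4 (7 to 15 on leaving out 1 library), and the 1 call among the 10 genes became 0 in both and with limma-voom. For DMSO against control, 4600 genes became 795 with Xist as a covariate, 23 list calls became 8, and 2 calls among the 10 genes became 0 (1 to 4 on leaving out 1 library). The share called lower in knockout against control was 56.8%, and 40.6% with control 3 as the only control. Counts of the 10 genes called in the main comparisons stayed at 2 to 4 in knockout and 2 to 3 with WM-3835.

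Of 750 recomputed log2 changes of the 10 genes, 52 had the other sign, and in all 52 the value passed the test under neither setting. With limma-voom and with its quality weights the values were 0.24 and 0.24 (Scg3, knockout), 0.50 and 0.49 (Chga, difference), 0.51 and 0.51 (Scg3, difference), 0.13 and 0.13 (Pcsk1n, difference), and, in DMSO against control, 1.42 and 1.42 (Pcsk1) and 0.017 and 0.017 (Chgb). With Pth as a covariate they were -0.55 (Chga, knockout), -0.19 (Chga, WM-3835), 0.36 (Cpe, WM-3835), and, in DMSO against control, 0.096 (Pcsk1) and 0.054 (Chgb). With Xist as a covariate they were -0.26 (Chgb, difference), -3.70 (Pcsk1n), -3.27 (Scg3) and -0.57 (Scg5), the last 3 in DMSO against control. Chgb was at -0.29 (difference) with knockout 3 alone, Scg3 at 4.70 (knockout) with control 3 alone, and Pcsk1 at 0.0069 (DMSO against control) with no filter. On leaving out 1 library, the knockout change ran from -6.08 to 0.87 (Pcsk1n), -0.60 to 0.10 (Chgb) and -5.24 to 4.72 (Scg3), and the WM-3835 change from -0.015 to 1.74 (Chga) and -0.84 to 0.12 (Scg3). The difference ran from -5.16 to 1.79 (Pcsk1n), -0.82 to 0.93 (Chga), -0.12 to 0.67 (Scg2) and -4.94 to 5.03 (Scg3). DMSO against control ran from -0.59 to 0.44 (Pcsk1), -0.36 to 0.18 (Chgb) and -0.12 to 0.86 (Scg5). The cause was not tested.

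With the replicate block (replicate numbers as a term), 2542, 3505, 2027 and 4559 genes were called in the 4 comparisons and the counts among the 10 genes were the same; the sign differed for 0.13 (Scg3, knockout), 0.26 (Chga, difference), 0.17 (Scg3, difference) and 0.32 (Pcsk1, DMSO against control). Same-numbered deviations correlated at -0.033 to 0.012 across genes between knockout and control and at 0.019 to 0.167 between WM-3835 and DMSO, so the numbers were not taken as pairs. Ranked by CPM and not per length, Pam came before Chga, Chgb before Scg5 and Pcsk2 before Pcsk1. Depth limits Pcsk1n and Scg3, with at most 27 and 16 counts in a library.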

Other observations

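Of 14 regulators of neuroendocrine genes tested, 2 fell in knockout, against 14.2% of all genes called there, and 2 fell and 2 rose with WM-3835, against 18.7%. The knockout count is at the background. Neurog3, which starts the endocrine lineage of the pancreas, had 0 counts in all 3 knockout libraries, against 31, 12 and 160 counts in controls, at least 52.7-fold lower against a floor of 3 counts over the group. Insm1 fell with WM-3835 (log2 -0.59, adjusted p = 0.000817). Pax6 (log2 3.75, adjusted p = 0.000597) and Foxa1 (0.72, adjusted p = 0.00174) rose with WM-3835.

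Across the 12 libraries, the genes whose log2 CPM followed Cpe most closely were the collagenase Mmp13 (root mean square difference 0.345 log2), the matrix gene Fbln2 (0.429) and the transporter Abcb1a (0.510), among 13778 genes compared. Nearest to Pam were Ggh (0.119), Col4a1 (0.120) and Ptprz1 (0.135). Nearest to Scg2 were Ndrg4 (0.319), Acacb (0.324) and Sv2b (0.345), and nearest to Chga were Spink8 (0.729), Ces2d-ps (0.731) and Slc23a4 (0.748). These are descriptions over libraries that share their groups.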
